A study of Mus musculus with 8 samples.

Results

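The comparison of pro-B(+) with pro-B(-) cells set 2 parental lines of Ebf1-deficient mouse pro-B cells beside each other, the line that can enter the T lineage against the line that cannot. Its members were chosen by title alone. They were the 2 arrays titled as having T-cell potential and the 2 titled as lacking it, 4 of the 8 arrays of the series. A probe entered the test where both arrays of 1 group, or of each group, had its spot flagged as well above background, which left 23505 of 39427 probes, read as 13251 named genes.

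Both lines lacked Ebf1, the transcription factor that commits progenitors to the B lineage, and both had been grown from lineage-negative fetal liver progenitors with stem cell factor, Flt3 ligand and IL-7. Pro-B(+) cells had been established on OP9, a stromal line from fetal calvaria, and pro-B(-) cells on TD7, a mesenchymal line from fetal thymus. Each group stands for a single line. The line, the sex of its embryo, the stroma and the T-cell potential therefore cannot be told apart. The labels do not say whether replicates were separate cultures. A legend of the study describes array data of these lines as resting on independent biological replicates, and p-values measure the spread between these arrays. The other 4 arrays, of pro-B(-) cells that carried an empty vector or Lmo2, are used below only for X- and Y-linked genes.

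Pro-B cells are the stage at which B-cell progenitors recombine the immunoglobulin heavy chain. Without EBF1 they grow for long periods under IL-7 and keep myeloid, NK and T-cell options that EBF1 and PAX5 would otherwise close. Entry into the T lineage is driven by Notch ligands on thymic stroma, and TCF-1, GATA3 and BCL11B act in turn to fix it.

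Levels are log2 processed intensities minus the 75th percentile of the same array, so that a level of 0 is the brightness of the array's upper quartile. Differences are pro-B(+) minus pro-B(-). A gene is said to have risen or fallen where limma gave an adjusted p under 0.05 and the difference was 2-fold or more. Smaller differences past the test are called higher or lower. Normexp, an alternative background correction with an offset, compresses the differences of dim genes, and where it or median scaling moved the rises or falls of a list by more than 1.5 times and more than 1 gene, that count is given in brackets or beside it. Of the 61 genes named below on such smaller differences, 22 lost the call under at least 1 alternative setting and are listed with the settings at the end. Levels of different genes come from different probes and are not compared.

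Replicate arrays correlated at r = 0.999 in each group, with an SD of their log2 differences of 0.151 in pro-B(+) and 0.143 in pro-B(-) cells. Arrays of different lines correlated at 0.978 with an SD of 0.652 to 0.666. The 75th percentile lay at an intensity of 769 to 953, from 56.5% to 61.3% of probes were well above background, and 0 spots were saturated. The test called 10122 probes, 43.1% of those tested, and without any single array 5814 to 6868. Among genes, 3134 (23.7%) were called higher and 2926 (22.1%) lower in pro-B(+) cells, with a median difference of −0.01 over all genes tested. The groups did not overlap in 10544 genes (79.6%), so that a lack of overlap sets few genes apart here. The balance of the sides depended on scaling. When arrays were centred on their median, 2990 probes passed the test as higher and 15282 as lower, in place of 4551 and 5571, since the median difference of the probes tested moved from −0.04 to −0.33.

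Large differences were mostly in 1 direction. In pro-B(+) cells 1420 genes (10.7%) rose and 292 (2.20%) fell. At 4-fold or more there were 690 rises and 71 falls, and at 30-fold or more 106 rises and 5 falls. Of the 1420 rises, 482 were of genes that neither pro-B(-) array held well above background, and of the 292 falls, 51 of genes that neither pro-B(+) array did. Such genes pass the filter only through the line where they are high, so their number is no evidence of a bias. Among the 12137 genes above background on all 4 arrays, 832 (6.86%) rose and 227 (1.87%) fell. The list counts below are to be read beside these shares of all genes. They are 10.7% and 2.20% for genes tested, and 6.86% and 1.87% for those above background on all 4 arrays.

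**Figure D1:**
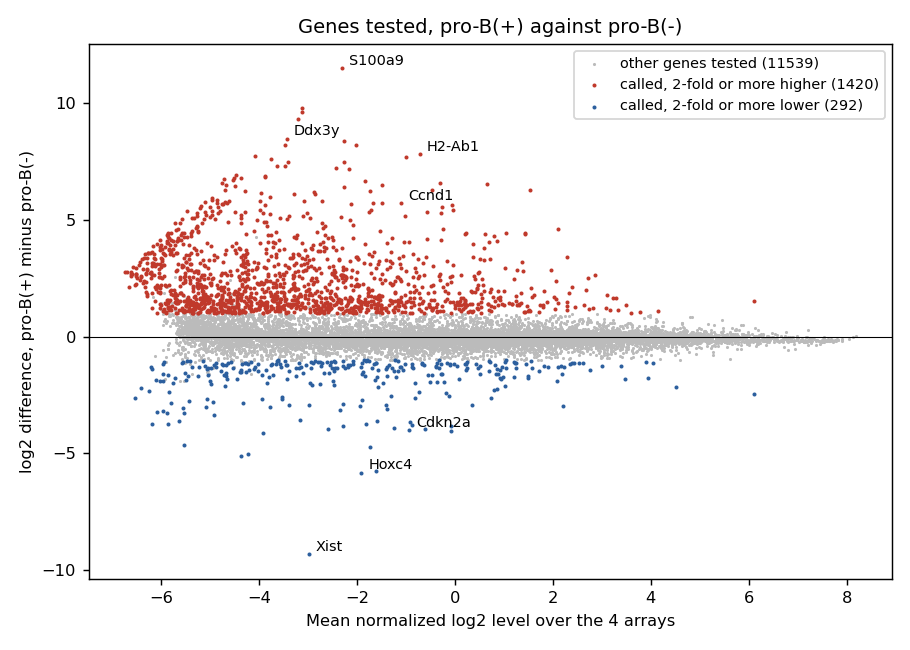
Each point is 1 of the 13251 genes tested, with its mean level over the 4 arrays on the horizontal axis and the log2 difference, pro-B(+) minus pro-B(-), on the vertical axis. Red points (1420) are called and 2-fold or more higher in pro-B(+) cells, blue points (292) called and 2-fold or more lower, and the diagonal edge at the upper left is formed by genes not above background in pro-B(-) cells.

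The pair of genes that separates the lines by sex chromosome was among the largest differences of the comparison. Xist, the noncoding RNA that coats the inactive X chromosome of female cells, measured −7.83 and −7.47 on the pro-B(+) arrays, where it was not well above background, and 1.64 and 1.73 on the pro-B(-) arrays. Xist was thus lower in pro-B(+) cells by at least 172-fold (limma adjusted p = 8.1e-05). Ddx3y, a Y-linked RNA helicase, measured 0.82 and 0.79 on the pro-B(+) arrays and −7.81 and −7.52 on the pro-B(-) arrays, where it was not well above background. The Y-linked genes thus ran opposite to Xist. Ddx3y was at least 98.3-fold higher (adjusted p = 7.7e-05), Eif2s3y, a Y-linked translation initiation factor, at least 87.9-fold, and Uty, the Y-linked relative of the histone demethylase Kdm6a, at least 7.14-fold.

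The same split held on the other arrays that derive from pro-B(-) cells. Xist measured 1.22 and 1.29 with the empty vector and 1.67 and 1.58 with Lmo2, whereas Eif2s3y and Uty were not well above background on any of these 4 arrays. The exception was Ddx3y, which was above background on the first empty-vector array at −4.82 and on none of the other 3. Kdm5d was not well above background on any of the 8 arrays. Of the X-linked genes that are known to escape X inactivation, Kdm6a (−0.62, adjusted p = 0.0071), Eif2s3x (−0.54) and Kdm5c (−0.44) were lower in pro-B(+) cells by less than 2-fold. In the list of X-inactivation and Y-linked genes 8 were tested, and the 1 that was not called was another X-linked gene. Eif2s3x has a further probe that goes the other way, and the mean over its probes was 0.25. The X chromosome as a whole did not stand apart. The median difference of its 374 genes above background on all 4 arrays was −0.0063, and the medians of the autosomes lay between −0.08 on chromosome 13 and −0.00082 on chromosome 14.

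**Figure D2:**
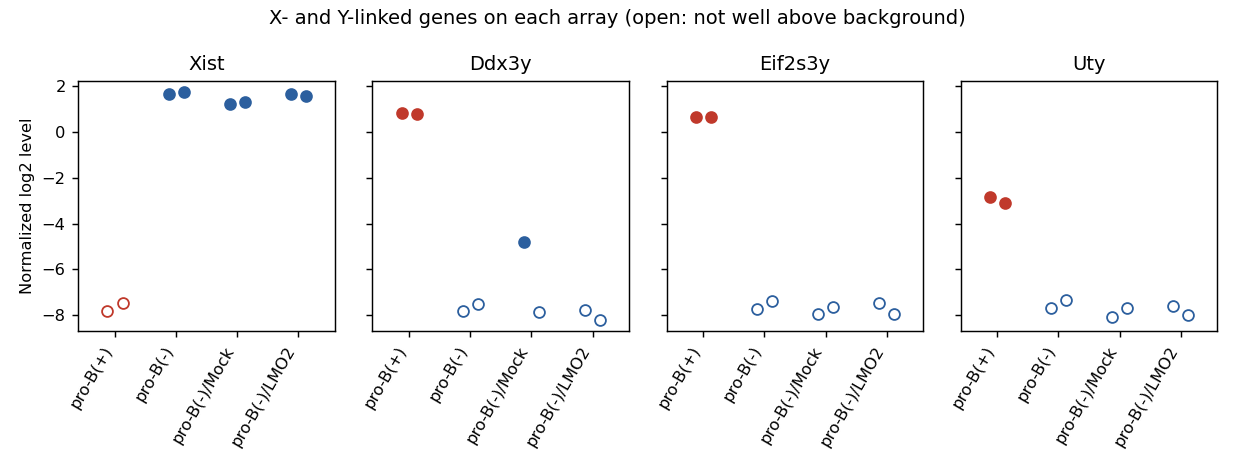
Normalized log2 levels of Xist and of the Y-linked genes Ddx3y, Eif2s3y and Uty on each of the 8 arrays, 2 per group, with open points not well above background. Pro-B(+) arrays lack Xist and hold the Y-linked genes, while the 6 arrays of pro-B(-) cells and their transductants hold Xist, with Ddx3y above background on a single one of them.

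The classical class II genes rose together, and their dedicated transactivator did not differ by the test. MHC class II molecules present peptides to CD4 T cells, are loaded in the lysosomal pathway with the help of H2-DM and the invariant chain Cd74, and are transcribed through promoter elements bound by the RFX and NF-Y complexes and the coactivator CIITA. Of the 16 genes of this list tested, 9 rose and 1 fell, beside the 10.7% and 2.20% of all genes, and of the 13 above background on all 4 arrays 7 rose and 1 fell. The median was 1.50, against −0.01 over all genes. The summed level of the list was 46.6 to 46.8 on the pro-B(+) and 7.55 to 7.58 on the pro-B(-) arrays, in units of the 75th percentile.

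To show the sequences upstream of these genes, promoters of 3 risen class II genes are given, read on the gene's strand. They run from 250 bases before to 50 after the start of the transcript (RefSeq, GRCm38.p6). H2-Eb1 lies at chr17:34305617-34305916 on the plus strand, H2-Aa at chr17:34287774-34288073 on the minus strand and H2-DMb1 at chr17:34152941-34153240 on the plus strand. Capitals mark exact matches, on either strand, to the core AGCAAC of the X box and to the CCAAT of the Y box. Variants of these letters were not searched for, so an unmarked promoter may still hold either box.
H2-Eb1: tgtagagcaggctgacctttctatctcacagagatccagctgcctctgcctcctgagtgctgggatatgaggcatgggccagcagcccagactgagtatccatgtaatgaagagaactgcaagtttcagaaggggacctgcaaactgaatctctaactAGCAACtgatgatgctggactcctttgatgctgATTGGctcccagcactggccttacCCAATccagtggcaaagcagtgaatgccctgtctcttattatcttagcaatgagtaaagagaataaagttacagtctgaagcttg
H2-Aa: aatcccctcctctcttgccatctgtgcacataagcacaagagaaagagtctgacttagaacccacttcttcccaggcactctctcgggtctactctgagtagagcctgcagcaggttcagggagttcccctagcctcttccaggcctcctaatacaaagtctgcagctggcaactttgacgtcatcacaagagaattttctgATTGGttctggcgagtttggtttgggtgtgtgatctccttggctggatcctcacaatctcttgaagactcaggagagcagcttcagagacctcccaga
H2-DMb1: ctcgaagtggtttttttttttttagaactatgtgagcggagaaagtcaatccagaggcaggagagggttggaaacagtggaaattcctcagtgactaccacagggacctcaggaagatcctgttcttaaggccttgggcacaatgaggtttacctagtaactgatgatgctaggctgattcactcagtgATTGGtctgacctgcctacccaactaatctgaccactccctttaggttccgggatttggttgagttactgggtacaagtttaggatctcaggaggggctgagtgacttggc

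The CCAAT match on the opposite strand ends at −55 in H2-Eb1, at −44 in H2-Aa and at −57 in H2-DMb1, counted from the start site. In H2-Eb1 the AGCAAC match lies at −92 to −87, upstream of it, and a further CCAAT lies at −35 to −31. On both strands, CCAAT was found in 37.4% of 32851 RefSeq promoters of this length and AGCAAC in 14.8%. Of the 6 risen class II genes with a promoter in the table, 5 held CCAAT and 1 AGCAAC, and of the 6 other list members with one, 5 and 4. The letters therefore occur in members that rose and in members that did not. No promoter was given for H2-Ab1 and Ciita.

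Of the chains of the surface molecule, H2-Aa measured 0.38 and 0.27 on the pro-B(+) arrays and −7.88 and −6.42 on the pro-B(-) arrays, where it was not well above background, which makes it at least 70.5-fold higher (adjusted p = 0.0017). Cd74 measured 2.94 and 2.98 against −1.32 and −1.43, a difference of 4.33 (SE 0.057, adjusted p = 7.5e-05). H2-DMb1, the beta chain of the peptide-exchange factor, measured 0.13 and 0.19 against −3.79 and −3.85 and rose by 3.98 (adjusted p = 7.4e-05). For Cd74 and H2-DMb1 the arrays of a line lay close together and far from those of the other. Its partner H2-DMa rose by 1.51, the protease Ctss, which trims the invariant chain, by 4.41, and the costimulatory ligand Cd86 by 1.48. The rise of H2-DMb2 (1.96, adjusted p = 0.0363) passed only narrowly and missed the threshold under 5 of the alternatives, among them leaving out either pro-B(+) array (adjusted p = 0.0991 and 0.148).

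The H2-O chains and the regulators of class II transcription did not follow. H2-Ob, the beta chain of H2-O, which inhibits H2-DM, measured −1.53 and −1.45 in pro-B(+) and 0.43 and 0.51 in pro-B(-) cells and fell by 1.96 (adjusted p = 2.1e-04). Its partner H2-Oa was lower by less than 2-fold (−0.49). Ciita measured −4.51 and −4.48 in pro-B(+) and −4.57 and −4.39 in pro-B(-) cells, with groups that overlap and a difference of −0.01 (SE 0.076, adjusted p = 0.9). Under median scaling and quantile normalization Ciita was called lower (−0.30 and −0.31). The RFX subunits Rfxank and Rfxap did not pass the test (−0.15 and −0.07), and Rfx5 was dim in both lines and was not tested.

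**Figure D3:**
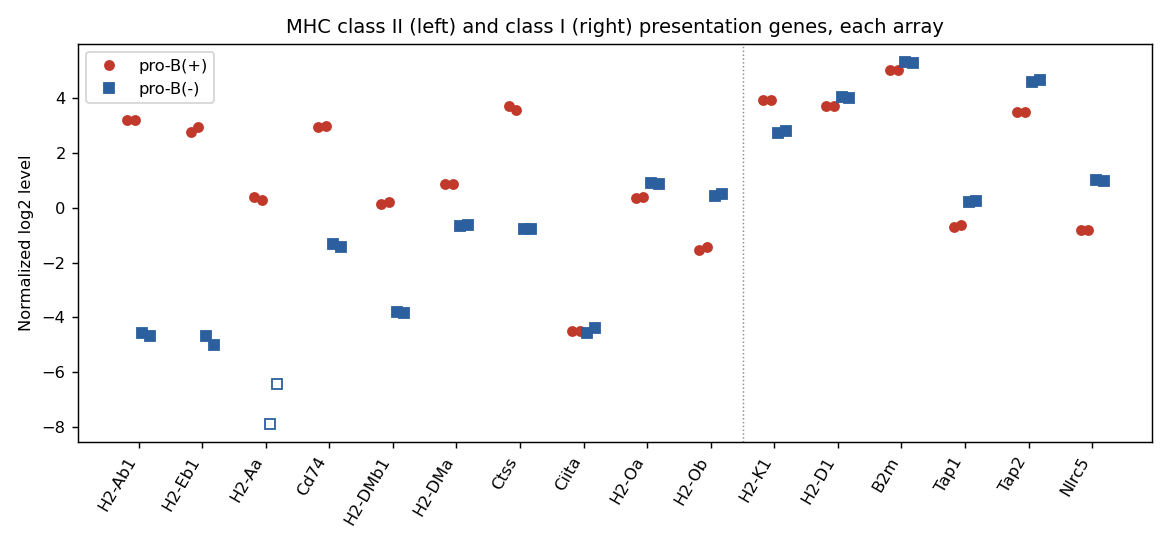
Normalized log2 levels of class II (left) and class I (right) presentation genes on each array, with pro-B(+) as red circles, pro-B(-) as blue squares and open symbols not well above background. Colours are to be compared within a gene, where H2-Ab1, H2-Eb1, H2-Aa, Cd74, H2-DMb1, H2-DMa and Ctss are higher in pro-B(+), H2-Ob, Tap2 and Nlrc5 are lower, and the arrays overlap for Ciita.

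The class I pathway, which presents cytosolic peptides to CD8 T cells, went mostly the other way and by less. All 12 genes of this list were above background on all 4 arrays, and 1 rose, 2 fell (4 with median scaling), 1 was higher and 5 were lower by less than 2-fold, with a median of −0.28. Nlrc5, the class I counterpart of CIITA, measured −0.82 and −0.80 in pro-B(+) and 1.0 and 0.97 in pro-B(-) cells and fell by 1.79 (adjusted p = 1.4e-04), although a dimmer probe gave −0.64. The peptide transporter subunit Tap2 fell by 1.13 and its partner Tap1 was lower (−0.87). The immunoproteasome subunit Psmb9 was lower (−0.89). In contrast, H2-K1, a class I heavy chain, rose by 1.17 with 3.92 and 3.92 against 2.71 and 2.80, while the other heavy chain H2-D1 (−0.29) and the light chain B2m (−0.27) were lower. H2-K1 and H2-D1 are close in sequence, so that their probes may share signal.

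Genes induced by interferon were higher in pro-B(+) cells. Type I interferon acts through receptor-activated transcription factors, IRF9 among them, which bind the response element GAAANNGAA and its variants. Of 21 genes tested 13 rose (8 with normexp) and 0 fell, with a median of 1.67. Of the 18 above background on all 4 arrays 10 rose. The summed level of the list was 36.2 to 36.6 in pro-B(+) and 29.4 to 30.1 in pro-B(-) cells. Promoters of Isg15, at chr4:156200769-156201068 on the minus strand, and Oas1a, at chr5:120907476-120907775 on the minus strand, are shown as examples of members that rose and that carry this motif (capitals) several times in overlapping copies.
Isg15: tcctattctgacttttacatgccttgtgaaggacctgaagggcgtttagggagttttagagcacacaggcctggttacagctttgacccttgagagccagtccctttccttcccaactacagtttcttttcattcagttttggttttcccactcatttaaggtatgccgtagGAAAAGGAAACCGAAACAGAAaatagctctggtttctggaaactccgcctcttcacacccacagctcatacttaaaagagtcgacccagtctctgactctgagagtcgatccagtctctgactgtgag
Oas1a: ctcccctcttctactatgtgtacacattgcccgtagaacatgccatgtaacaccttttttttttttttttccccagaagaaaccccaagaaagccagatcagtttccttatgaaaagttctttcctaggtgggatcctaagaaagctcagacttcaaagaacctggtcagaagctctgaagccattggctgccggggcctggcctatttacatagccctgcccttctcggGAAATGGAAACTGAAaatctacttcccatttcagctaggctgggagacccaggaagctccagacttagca

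In Isg15 the copies span −78 to −58 and in Oas1a −20 to −6. GAAANNGAA, on either strand, was found in 8.56% of all promoters of this length, in those of 7 of 10 risen interferon genes with a promoter in the table and in 5 of 8 other members. Isg15, a ubiquitin-like modifier, measured 1.24 and 1.25 in pro-B(+) and −1.33 and −1.35 in pro-B(-) cells and rose by 2.59 (adjusted p = 8.2e-05). Oas1a, a sensor that makes the activator of RNase L, measured 0.66 and 0.61 against −3.42 and −3.39 and rose by 4.04 (adjusted p = 7.4e-05). Its relatives Oas2 and Oasl2 rose by 4.06 and 3.13, and the groups of all of these lay well apart.

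The largest rise of the list was that of Ifit3, a partner of the RNA-binding protein IFIT1. It measured −1.51 and −1.36 in pro-B(+) cells and in pro-B(-) cells, at least 20.8-fold lower, was not well above background. The guanylate-binding protein Gbp2 rose by 3.70, the ISG15 protease Usp18 by 2.67, and Irf7, which amplifies the interferon response, by 1.45. Of the signalling factors, Irf9 was higher by 0.39 (adjusted p = 0.006). Bst2, an inducible tether of virus particles, was lower (−0.31).

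Myeloid genes made up many of the largest rises. Granule proteins and the NADPH oxidase arm neutrophils and monocytes against microbes. In this list 15 of 20 genes tested rose and 0 fell, with a median of 3.70, or 3.61 with dim genes at their bounds, and 7 of the 12 above background on all 4 arrays rose. S100a9, a calcium-binding protein of neutrophils and monocytes, measured 3.43 and 3.45 on the pro-B(+) arrays and −8.22 and −7.91 on the pro-B(-) arrays, where it was not well above background. The bound on its rise was 610-fold (adjusted p = 7.4e-05), and its partner S100a8 at least 193-fold. The lysozyme Lyz2 was at least 127-fold higher and the iron-binding granule protein Ltf at least 27.0-fold.

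Primary granule genes were expressed in both lines and differed less than S100a9, S100a8, Lyz2 and Ltf, by 0.68 to 4.21. Mpo, the myeloperoxidase of the primary granule, measured 3.99 and 4.01 in pro-B(+) and 0.55 and 0.59 in pro-B(-) cells and rose by 3.43 (adjusted p = 7.4e-05). The serine proteases Prtn3 and Ctsg rose by 4.21 and 3.53, while Elane, a protease of the same granules, was higher by only 0.68 (adjusted p = 0.0079). Within the oxidase, the catalytic subunit Cybb was at least 21.4-fold higher, and its cytosolic partner Ncf4 was lower (−0.53). The summed level of the list was 106 to 109 in pro-B(+) and 61.6 to 64.4 in pro-B(-) cells.

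Surface receptors and adaptors of myeloid cells rose in 16 of 23 genes and fell in 0, with a median of 1.58, and among the 21 above background on all 4 arrays 14 rose. Csf1r, the receptor for macrophage colony-stimulating factor, measured 3.64 and 3.65 in pro-B(+) and −0.76 and −0.85 in pro-B(-) cells. Its rise of 4.45 (adjusted p = 7.4e-05) varied over its other probes from 0.96 to 5.20. Trem2, a lipid receptor of macrophages, rose by 5.33, the toll-like receptor Tlr2 by 3.47, the inhibitory receptor Pirb by 3.21, and the lipopolysaccharide coreceptor Cd14 by at least 18.3-fold. The Fc receptor Fcgr3, with 0.90 and 0.95 against 1.95 and 1.86, was lower (−0.98), and the integrin Itgam, which defines mature myeloid cells, did not pass the test (−0.14). The granulocyte colony-stimulating factor receptor Csf3r did not pass it either (−0.17).

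All 15 myeloid transcription factors tested were called higher, 7 of them by 2-fold or more, with a median of 0.78, beside the 23.7% of all genes called higher. Cebpa, which initiates the granulocyte and monocyte programme, measured −1.17 and −1.17 in pro-B(+) and −3.71 and −3.74 in pro-B(-) cells and rose by 2.55 (adjusted p = 8.3e-05). Irf8, a factor of monocytes and dendritic cells, measured 2.60 and 2.61 against 0.46 and 0.55 and rose by 2.10. The groups of both genes lay far apart. Maf, Batf3 and Irf4 rose as well, Maf by at least 10.4-fold (adjusted p = 2.0e-04, but 0.0536 in the fit of all 8 arrays). Spi1, which encodes PU.1 and which both B and myeloid progenitors use, was higher by 0.54. Cebpe, a factor of late granulocytes, rose by 1.50 (adjusted p = 0.0275), a call that was lost without either pro-B(+) array (adjusted p = 0.0994 and 0.0809), without the second pro-B(-) array (0.0605) and without the filter on dim probes (0.0924).

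Lysosomal genes were called higher in 17 of 18 cases, beside 23.7% of all genes, and rose in 7, beside 10.7%. All were above background on all 4 arrays, and the median was 0.82. Ctsh, a cysteine protease, measured 1.75 and 1.77 in pro-B(+) and −4.59 and −4.87 in pro-B(-) cells and rose by 6.49 (SE 0.11, adjusted p = 9.2e-05). The progranulin gene Grn rose by 3.40, the hexosaminidase subunit Hexa by 2.77, and the proteases Ctsz and Lgmn by 2.00 and 1.90. Tfeb, the transcription factor of lysosomal genes, was higher by 0.77.

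Markers of stroma moved with these rises. Of 20 stromal and mesenchymal markers tested 12 rose (6 with normexp) and 0 fell, with a median of 1.38, and their summed level was 35.1 to 35.5 in pro-B(+) against 16.3 to 16.9 in pro-B(-) cells. The collagen chain Col1a1 measured −0.73 and −0.73 against −2.35 and −2.42 and rose by 1.65, and Col1a2 and Col6a1 each rose by 1.41. The matrix protein Fbn1 was at least 4.94-fold higher. Dcn, Lum, Postn, Col5a2 and Igfbp7 did not reach the filter in either line. The fat-cell hormone Adipoq did not differ by the test (−0.02). The part of stromal RNA in the myeloid, interferon and class II results was not tested. In bulk RNA, fewer cells of a type and less RNA per cell cannot be told apart, which holds for every lineage marker given here.

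Many markers of other blood lineages were dim in 1 or both lines. In the dendritic cell list 4 of 9 genes tested rose (2 with normexp, and 1 among the 6 above background on all 4 arrays) and 0 fell, with a median of 0.81. Ccr7, the chemokine receptor that guides dendritic and lymphoid cells to lymph nodes, measured 2.83 and 2.77 in pro-B(+) and 0.83 and 0.83 in pro-B(-) cells and rose by 1.97 (adjusted p = 1.4e-04). The lectin Clec10a was at least 15.3-fold higher. Xcr1 and Clec9a, which define cross-presenting dendritic cells, did not reach the filter in either line, and Siglech, of plasmacytoid dendritic cells, did not pass the test (−0.25).

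Of the mast cell, basophil and eosinophil markers, 7 of 15 were too dim to test, and 6 of the 8 tested rose (2 with normexp). The median of those tested was 3.01, or 1.86 with dim genes at their bounds. Only 2 of these 8 were above background on all 4 arrays. Mitf, a factor of mast cells and melanocytes, measured −0.99 and −0.98 against −3.53 and −3.76 and rose by 2.66 (adjusted p = 3.0e-04). Prg2 was at least 6.18-fold, Cpa3 at least 3.98-fold and Mcpt8 at least 2.30-fold higher, while Gata2 and Fcer1a did not reach the filter. Among 13 erythroid and megakaryocyte markers tested, with a median of 0.17, 0 fell and 4 rose (1 with normexp). They were Car2 (at least 6.55-fold), Pf4 (at least 2.40-fold), Vwf (3.25) and Gata1 (2.59), none of which was above background on both pro-B(-) arrays. The values of Vwf and Gata1 rest on 1 pro-B(-) array above background each, and under normexp they were 1.31 and 0.72. The globin Hba-a1 and the heme synthesis gene Alas2 did not reach the filter, and the erythroid factor Klf1 did not pass the test.

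Chemokine genes rose widely. Of 25 chemokines and receptors tested 17 rose and 0 fell, with a median of 2.15 (1.75 with dim genes at their bounds), and 11 of the 18 above background on all 4 arrays rose. Ccl6, which attracts myeloid cells, measured 1.35 and 1.43 in pro-B(+) and −4.85 and −4.88 in pro-B(-) cells and rose by 6.25 (adjusted p = 7.2e-05). Ccl2, the main ligand of CCR2, measured 0.19 and 0.27 in pro-B(+) cells and in pro-B(-) cells, at least 65.9-fold lower, was not well above background. Its receptor Ccr2 rose by 1.54. Ccl3 and Ccl4, which attract monocytes and lymphocytes, rose by 2.85 and 5.16. The interferon-inducible ligand Cxcl10 rose by 3.34 and its receptor Cxcr3 by 2.15.

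NK and cytotoxic genes were higher as well. Of 14 genes tested 10 rose (6 with normexp) and 0 fell, with a median of 2.74 (1.66 at the bounds), and 5 of the 9 above background on all 4 arrays rose. The summed level was 14.5 to 14.6 in pro-B(+) and 4.59 to 4.63 in pro-B(-) cells. Klrd1, the CD94 receptor chain, measured 1.55 and 1.51 in pro-B(+) and −2.61 and −2.72 in pro-B(-) cells and rose by 4.20 (adjusted p = 7.7e-05). Gzma, a granule protease, measured 1.11 and 1.10 against −2.25 and −2.35 and rose by 3.40. The chemokine Xcl1 was at least 15.8-fold and the NK factor Eomes at least 2.84-fold higher. Perforin, Prf1 (−0.47), and Zbtb16 (−0.84), which encodes PLZF of innate-like lymphocytes, were lower. Ncr1 and Tbx21, which define mature NK cells, did not reach the filter in either line.

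**Figure D4:**
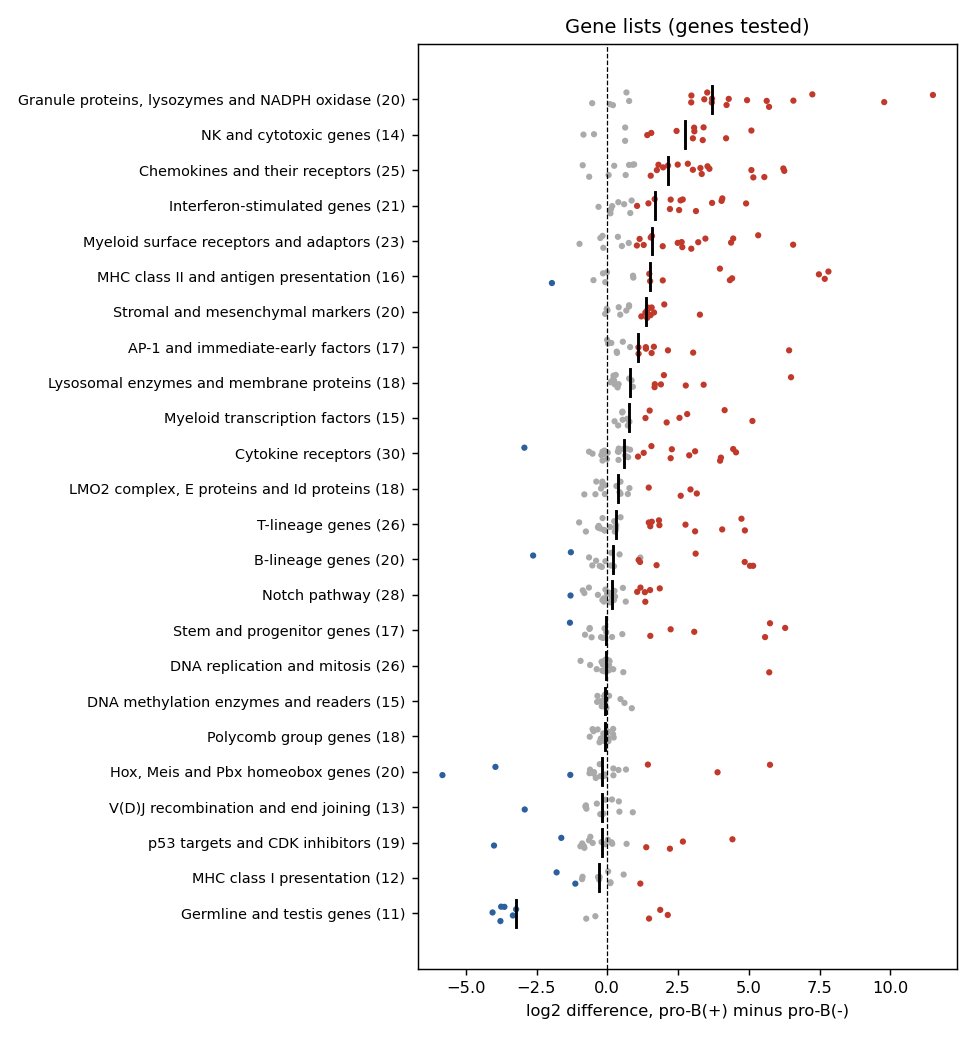
Log2 differences, pro-B(+) minus pro-B(-), of the genes tested in 24 lists, 1 point per gene and a black bar at each list's median, with the number tested in brackets. Red and blue points are called and 2-fold or more higher or lower and grey points are not, and the medians run from 3.70 for granule genes to −3.22 for germline genes.

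LMO2 is a scaffold that joins TAL1 or LYL1, E proteins, LDB1 and GATA factors in 1 complex on DNA. Lmo2 measured 2.08 and 2.10 in pro-B(+) and 0.62 and 0.63 in pro-B(-) cells. Of 18 genes tested in the list of its partners and of E and Id proteins, 4 rose and 0 fell, with a median of 0.38. None of the core partners that were above background on all 4 arrays rose with it. Ldb1 did not pass the test (−0.09), Lyl1 (−0.42, adjusted p = 0.0075) and Tal1 (−0.22) were lower, and the E protein Tcf3 did not pass the test (−0.08). Gata1 rose by 2.59 (adjusted p = 0.0087) from −5.23 and −6.17 to −3.11 and −3.10, a call that was lost without the second pro-B(+) array (adjusted p = 0.0543).

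The inhibitors of E proteins changed more than the E proteins. Id1, which binds E proteins and keeps them off DNA, measured −0.28 and −0.27 in pro-B(+) and −3.42 and −3.46 in pro-B(-) cells and rose by 3.16 (adjusted p = 7.4e-05). Id3 measured 0.63 and 0.68 against −2.20 and −2.36 and rose by 2.94 (adjusted p = 1.7e-04). Neither gene overlapped between the lines, which held for 79.6% of all genes tested. Id2 was higher by 0.78 and the E protein Tcf4 by 0.43. In the TGF-beta and BMP list, whose ligands induce Id genes in many cells, 10 of 24 genes tested rose (4 with normexp) and 0 fell, with a median of 0.33. The ligands Bmp4 and Bmp7 rose by 1.50 and 1.23 and Tgfb3 by 1.50. The inhibitory Smad6 and the receptor Bmpr1a were dim and were at least 3.30-fold and at least 2.56-fold higher, while Smad7, which also inhibits the pathway, was lower (−0.47). The receptor-activated Smad2 and Smad3 did not pass the test (−0.04 and −0.11).

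Stem and progenitor genes split. Of 17 genes tested, all above background on all 4 arrays, 6 rose and 1 fell, with a median of −0.03. Ly6a, which encodes the stem cell antigen Sca-1, measured 1.51 and 1.47 in pro-B(+) and −1.53 and −1.63 in pro-B(-) cells and rose by 3.07 (adjusted p = 9.7e-05). Kit, the receptor for stem cell factor in the medium, measured 0.66 and 0.68 against −1.66 and −1.48 and rose by 2.24 (adjusted p = 2.8e-04). The receptor for the other progenitor cytokine, Flt3, did not pass the test (−0.10), nor did Hhex (−0.03), and Myb was lower (−0.79). Mecom, Gata2, Hlf, Procr, Prom1 and Tek did not reach the filter.

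The fetal growth programme driven by LIN28B and the HMGA and IGF2BP proteins was higher in part. Of 8 genes tested 4 rose (2 with normexp) and 0 fell, with a median of 1.12. Hmga2, a chromatin protein of fetal progenitors, measured 2.68 and 2.67 in pro-B(+) and −3.78 and −3.44 in pro-B(-) cells and rose by 6.28, the largest rise of the list among genes above background on all 4 arrays. Lin28b, which blocks let-7 microRNAs, measured 2.29 and 2.31 in pro-B(+) and 0.40 and 0.42 in pro-B(-) cells and rose by 1.89 (adjusted p = 1.2e-04), and a dimmer probe gave 1.52. Igf2bp2, an RNA-binding protein, measured −3.32 and −3.13 against −5.16 and −5.04 and rose by 1.87. The growth factor Igf2 was at least 4.56-fold higher. Lin28a and Hmga1 did not pass the test (−0.04 and −0.08).

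Among homeobox genes of the A cluster the falls were of Hoxa10 and Hoxa11, at the 5′ end. In the whole Hox, Meis and Pbx list 3 of 20 genes tested rose and 3 fell, with a median of −0.17. Of all genes, 10.7% rose and 2.20% fell. Hoxa2 did not pass the test (−0.08). Hoxa3 to Hoxa9 were lower by less than 2-fold, with differences from −0.63 for Hoxa9 to −0.27 for Hoxa7. Hoxa10 measured 0.28 and 0.34 in pro-B(+) and 1.60 and 1.63 in pro-B(-) cells and fell by 1.31 (adjusted p = 3.2e-04). Hoxa11 measured −2.62 and −2.54 against 1.38 and 1.37 and fell by 3.95 (adjusted p = 7.4e-05). Its antisense transcript Hoxa11os fell by 3.80, with −2.03 and −1.92 against 1.84 and 1.82. Whether these probes tell the strands of the locus apart was not tested. Outside the A cluster, Hoxc4 measured −4.75 and −4.89 in pro-B(+) and 1.0 and 1.0 in pro-B(-) cells and fell by 5.82 (adjusted p = 7.4e-05), the largest fall among all genes above background on all 4 arrays. Meis1, a partner of HOX proteins, measured 1.38 and 1.41 against −4.26 and −4.45 and rose by 5.75. Hoxb4 rose by at least 6.90-fold (adjusted p = 7.9e-04). The 15 genes of the list that were not tested were all dim Hox genes of the B, C and D clusters. Meis2 rose by 1.43 (adjusted p = 0.0181), a call that was lost without either pro-B(+) array (adjusted p = 0.0754 and 0.0800) and without the filter on dim probes (0.0686).

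**Figure D5:**
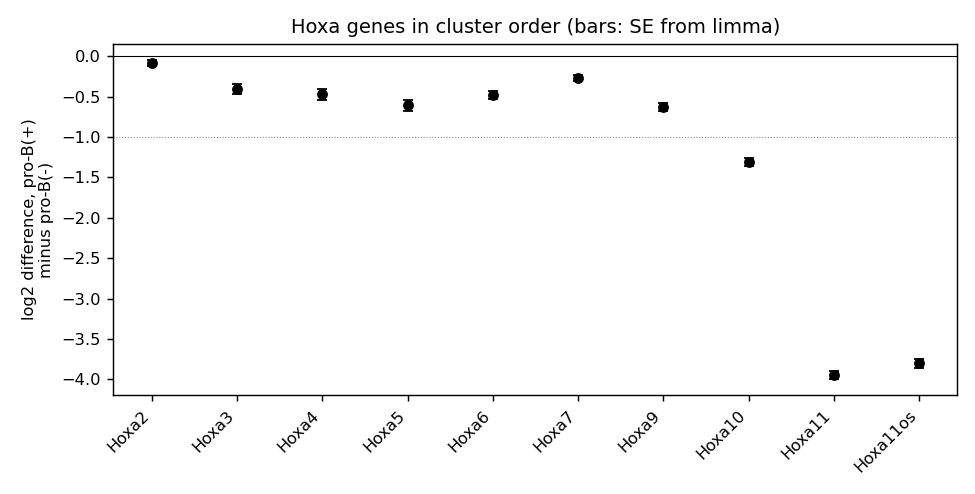
Log2 differences, pro-B(+) minus pro-B(-), of Hoxa2 to Hoxa11 and of the antisense transcript Hoxa11os in their order along the cluster, with bars for the SE from limma (2 arrays per group) and a dotted line at a 2-fold fall. Values stay within 2-fold from Hoxa2 (−0.08) to Hoxa9 (−0.63) and reach −1.31 at Hoxa10 and −3.95 at Hoxa11.

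B-lineage genes did not move as a group. Of 20 genes tested 7 rose and 2 fell (0 fell with normexp), with a median of 0.19, and 5 of the 16 above background on all 4 arrays rose and 1 fell. Blnk, the adaptor that couples the pre-B receptor to its signal, measured −0.26 and −0.30 in pro-B(+) and −5.26 and −5.01 in pro-B(-) cells and rose by 4.86 (adjusted p = 1.2e-04). Cd79b, a signalling chain of the receptor, measured −0.53 and −0.53 in pro-B(+) cells and in pro-B(-) cells, at least 35.0-fold lower, was not well above background. The other chain, Cd79a, did not pass the test (0.24). The ETS factor Spib rose by 3.12, Foxo1, a partner of EBF1 in early B cells, by 1.74, and the exchange factor Rasgrp3 by at least 9.28-fold.

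The surrogate light chain went the other way. Vpreb1 measured −2.60 and −2.53 in pro-B(+) and −1.27 and −1.30 in pro-B(-) cells and fell by 1.29 (adjusted p = 3.3e-04). Igll1, its partner, was above background only in pro-B(-) cells, at −5.23 and −5.20, a level at least 1.44-fold that of pro-B(+) cells. Ms4a1, Blk, Pou2af1 and Vpreb3 did not reach the filter in either line, and Pax5 did not pass the test (0.43, adjusted p = 0.0675). Of the 25 genes of the B-lineage list, 20 thus reached the filter, Vpreb1, Igll1, Cd79a, Pax5 and Il7r among them. The other 5 were dim in both lines, among them Ms4a1, Blk, Pou2af1 and Vpreb3. Blnk, Cd79b and Spib were higher in pro-B(+) cells, as given above. B220 is 1 form of the product of Ptprc, and whether the probe tells that form apart was not tested. The IL-7 receptor chain Il7r was lower in pro-B(+) cells (−0.64) and Ptprc did not differ by the test (0.08).

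The recombination machinery, which cuts and joins immunoglobulin and T-cell receptor segments, was lower at the step that adds bases. Dntt, the terminal transferase, measured −4.79 and −4.88 in pro-B(+) and −2.01 and −1.83 in pro-B(-) cells and fell by 2.92 (adjusted p = 2.0e-04). The recombinase genes Rag1 (−0.77) and Rag2 (−0.74) were lower as well. Of the 13 genes of the list, all above background on all 4 arrays, 0 rose and 1 fell (4 with median scaling), 3 were higher and 6 lower by less than 2-fold. The Ku subunits opposed each other, with Xrcc5 higher by 0.90 and Xrcc6 lower (−0.75).

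T-lineage genes rose in 10 of 26 tested and fell in 0, with a median of 0.30. With normexp 4 rose, and with median scaling 2 fell. Most of these rises were of genes dim in pro-B(-) cells. Among the 18 above background on all 4 arrays 3 rose and the median was 0.0039. The summed level of the list was lower in pro-B(+) cells, at 48.7 to 50.8 against 64.5 to 67.5 in pro-B(-) cells. Cd7, a surface protein of early T and NK cells, measured 1.10 and 1.08 in pro-B(+) and −2.94 and −3.01 in pro-B(-) cells and rose by 4.06 (adjusted p = 7.4e-05). Cd2, an adhesion receptor, measured 1.42 and 1.49 against −0.39 and −0.39 and rose by 1.84 (adjusted p = 1.6e-04). The T-cell receptor chain Cd3g was at least 8.48-fold and the IL-2 receptor chain Il2ra, which marks the DN2 stage as CD25, at least 3.93-fold higher.

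Of the early factors, Tcf7, which encodes TCF-1, measured −2.90 and −2.89 on the pro-B(+) arrays and was not well above background on the pro-B(-) arrays, a difference of at least 7.55-fold. Gata3 measured −1.25 and −1.10 against −1.64 and −1.64 and was higher by 0.47.

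Several other genes that T-cell progenitors use were not higher. Thy1, which both lines expressed, measured 4.06 and 4.12 in pro-B(+) and 5.12 and 5.04 in pro-B(-) cells and was lower (−0.99, adjusted p = 8.2e-04). Bcl11b, the commitment factor, was lower (−0.76, adjusted p = 0.0165), as were the kinases Lck (−0.30) and Zap70 (−0.33). Cd3e and Ptcra, the pre-T-cell receptor chain, did not pass the test (−0.11 and 0.31). Themis, Lef1 and Cd8a did not reach the filter in either line.

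Notch pathway genes were not shifted as a group. Of 28 tested 6 rose and 1 fell, with a median of 0.18. With normexp 1 rose and 0 fell, and with median scaling 4 rose and 3 fell. Of the receptors, Notch3 measured −2.73 and −2.69 in pro-B(+) and −4.31 and −4.14 in pro-B(-) cells and rose by 1.51, Notch1 (−0.81) and Notch4 (−0.87) were lower, and Notch2 did not pass the test (0.08). Dtx4, a ubiquitin ligase of the pathway, measured 0.78 and 0.82 in pro-B(+) and −0.59 and −0.50 in pro-B(-) cells and rose by 1.34 (adjusted p = 3.7e-04). The target Hes5 measured −2.01 and −1.92 against −3.12 and −3.16 and rose by 1.17 (adjusted p = 5.5e-04). The ligands Jag1 and Dll1, not well above background on the pro-B(-) arrays, were at least 2.00-fold and at least 1.65-fold higher, and the call of Dll1 was lost with normexp (adjusted p = 0.0986). Nrarp, a target that dampens Notch signals, measured −5.11 and −5.93 against −4.13 and −4.31 and fell by 1.30 (adjusted p = 0.0379), a call lost without the filter on dim probes (0.117) and without either pro-B(-) array (0.157 and 0.136). The targets Hes1, Hey1 and Heyl did not reach the filter, and Dtx1 did not pass the test (−0.06).

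Cytokine receptors rose in 11 of 30 genes tested and fell in 1, with a median of 0.60. Il1r2, the decoy receptor for IL-1, measured 0.74 and 0.77 in pro-B(+) and −3.80 and −3.78 in pro-B(-) cells and rose by 4.55 (adjusted p = 7.2e-05). Il6ra, the IL-6 receptor, measured 2.37 and 2.37 against −1.56 and −1.67 and rose by 3.99, and the signalling receptor for IL-1, Il1r1, by at least 6.78-fold. The single fall was that of Il18r1, the IL-18 receptor, which measured −1.10 and −1.11 in pro-B(+) and 1.80 and 1.84 in pro-B(-) cells and fell by 2.93 (adjusted p = 7.8e-05). Il10ra rose by 2.89 and Il4ra by 2.28, while their partners Il10rb and Il2rg differed by −0.52 and 0.41.

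Adhesion receptors went both ways, with 5 rises and 3 falls (1 with normexp) among 25 genes tested and a median of 0.10. The tetraspanin Cd63 rose by 1.81 and the integrin Itgal, of LFA-1, by 1.41. Itgav, the alpha chain of vitronectin receptors, measured −3.08 and −3.07 against −1.77 and −1.72 and fell by 1.33 (adjusted p = 2.5e-04). Pecam1 fell by 1.13 and Jam3 by 1.11.

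Immediate-early genes, which switch on within minutes of a stimulus, rose in 9 of 17 cases and fell in 0, with a median of 1.10, and 7 of the 15 above background on all 4 arrays rose. Atf3, a stress-induced factor, measured 0.92 and 1.0 in pro-B(+) cells and −5.47 and −5.46 in pro-B(-) cells, where it was not well above background, and was at least 85.9-fold higher (adjusted p = 7.2e-05). Egr2 rose by 3.03, Nr4a1 by 2.14, Egr1 by 1.65 and Fos by 1.36. The Fos partner Jun was higher by 0.34 and Junb by 0.81.

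Proliferation genes differed little apart from a D-type cyclin. Of 26 genes of DNA replication and mitosis, all above background on all 4 arrays, 19 did not pass the test, and the median was −0.03. Ccnd1, a cyclin that drives entry into S phase, measured 1.76 and 1.75 in pro-B(+) and −4.01 and −3.92 in pro-B(-) cells and rose by 5.72 (SE 0.052, adjusted p = 7.2e-05). The other D cyclins differed far less, with Ccnd2 higher by 0.57 and Ccnd3 lower (−0.37). Their kinase partner Cdk6 was lower (−0.94) and Cdk4 did not pass the test (−0.15). Mki67 and Mcm2 did not pass it either (−0.10 and −0.10), but like most genes near 0 they were called lower under median scaling.

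CDK inhibitors and p53 targets split, with 4 rises and 2 falls among 19 genes tested and a median of −0.20. Normexp left 2 rises, and median scaling gave 6 falls. Cdkn2a, the locus of the inhibitor p16 and of ARF, measured −3.08 and −2.81 in pro-B(+) and 0.97 and 1.14 in pro-B(-) cells and fell by 4.0 (adjusted p = 2.2e-04), the larger of the falls. Of the inhibitors, Cdkn1c, which encodes p57, measured −2.04 and −2.07 in pro-B(+) cells and in pro-B(-) cells, at least 13.5-fold lower, was not well above background. The target Zmat3, an RNA-binding protein, measured −1.26 and −1.29 against 0.34 and 0.36 and fell by 1.62 (adjusted p = 1.7e-04). Further p53 targets were lower by less than 2-fold on their brightest probes, Cdkn1a (−0.89, and −2.28 on a dimmer probe), Trp53inp1 (−0.83), Ccng1 (−0.81) and Phlda3 (−0.65). Gdf15 and Perp, which p53 also induces, rose by 2.21 and 1.38.

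Of 21 cell death genes tested 3 rose (1 with normexp) and 0 fell, beside 10.7% and 2.20% of all genes, with a median of −0.10. The survival gene Bcl2 measured 2.21 and 2.25 in pro-B(+) and 2.89 and 2.90 in pro-B(-) cells and was lower (−0.66). Bcl2a1d, a survival gene whose near-identical copies may share its signal, measured 1.39 and 1.46 in pro-B(+) and −5.36 and −6.15 in pro-B(-) cells and rose by 7.18 (adjusted p = 4.2e-04). Only 1 of its pro-B(-) arrays was above background, and normexp gave 4.54. The pro-survival Bcl2l2 rose by 1.21 and the BCL2 relative Bok by 1.58. The p53-induced killer Bbc3, which encodes PUMA, was lower (−0.88), as was Bax (−0.55).

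Neither the DNA methylation enzymes (15 tested) nor the Polycomb genes (18 tested) held a rise or fall, with medians of −0.07 and −0.08. Among them Tet2 was higher by 0.87 and Dnmt3b by 0.61, and Kdm6a was lower as given above. Among ETS, Ikaros and Runx factors 1 of 22 rose and 2 fell. Erg, an ETS factor of stem cells, measured −2.97 and −2.82 against −1.58 and −1.57 and fell by 1.32. Runx1, which B, T and stem cell programmes share, measured 1.84 and 1.91 in pro-B(+) and 3.04 and 2.94 in pro-B(-) cells and fell by 1.11 (adjusted p = 7.9e-04). Etv4 and Etv5, targets of ERK signalling, were higher by 0.98 and 0.90.

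Metabolic lists showed single large changes over little shift. Of 25 cholesterol and fatty acid genes 2 rose and 0 fell, beside 10.7% and 2.20% of all genes, with a median of 0.13. The desaturase Scd1 rose by at least 17.1-fold and the exporter Abca1 by 2.19. Of 24 glycolysis and hypoxia genes 5 rose (3 with median scaling), with a median of 0.12, among them the hexokinase Hk3 (at least 12.4-fold) and the oxygen sensor Egln3 (2.49). In the list of ER stress and ATF4 targets 1 of 18 rose and 1 fell, Chac1 (1.28) and Trib3 (−1.48). None of the 10 reference genes tested rose or fell. Actb measured 8.16 and 8.11 against 8.14 and 8.15 (−0.01) and Gapdh differed by −0.05, while Tbp (−0.19) and Tfrc (−0.21) were lower.

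Germline genes were the list with the most falls. Of 11 tested 6 fell and 3 rose, with a median of −3.22 (−1.26 at the bounds), and of the 8 above background on all 4 arrays 4 fell and 3 rose. Ddx4, the Vasa helicase of germ cells, measured −2.72 and −2.75 in pro-B(+) and 0.93 and 0.87 in pro-B(-) cells and fell by 3.63 (adjusted p = 7.4e-05). Of the X-linked Xlr cluster, named for lymphocyte regulation, Xlr4a measured −3.66 and −3.72 against 0.06 and 0.06 and fell by 3.75 (adjusted p = 7.4e-05), Xlr3b fell by 4.05, Xlr4b by 3.77 and Xlr3a was at least 5.62-fold lower. This cluster made up 4 of the 6 falls of the list. Its copies are near-identical, so their probes may share signal, and the falls may not be separate ones. Sycp1, of the meiotic synaptonemal complex, was at least 2.40-fold lower. Rhox5, another X-linked gene, went the other way and rose by 1.48, as did the testis genes Speer1 and Speer2.

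Among imprinted genes 5 of 14 tested rose and 1 fell, and 2 rose with normexp as well as among the 10 above background on all 4 arrays. Dlk1, a paternally expressed Notch-related ligand, measured 0.42 and 0.45 in pro-B(+) and −2.67 and −2.70 in pro-B(-) cells and rose by 3.12 (adjusted p = 7.7e-05). Igf2r, the maternally expressed receptor that removes IGF2, measured 1.46 and 1.47 against 2.69 and 2.79 and fell by 1.27 (adjusted p = 4.3e-04). Cdkn1c and Igf2, given above, belong to this list as well. Several of the largest changes were of genes not named so far. Tgfbi, a secreted matrix protein, measured 1.48 and 1.52 in pro-B(+) and −5.17 and −5.16 in pro-B(-) cells and rose by 6.67. The lysozyme Lyz1 rose by 6.58 and the inhibitory receptor Lilrb4a by 6.57. Lgals3, which encodes galectin-3, measured 4.66 and 4.68 against −1.58 and −1.66 and rose by 6.29. Ly86, a partner of the toll-like receptor relative RP105, rose by 5.75. Bcl11a, a zinc finger factor of lymphoid progenitors, measured 2.50 and 2.56 against −3.10 and −2.98 and rose by 5.57. Of the falls, Sobp measured −4.55 and −4.38 in pro-B(+) and 1.29 and 1.24 in pro-B(-) cells and fell by 5.73, and Ccno, a cyclin-like protein of multiciliated cells, fell by 4.73. Cd55, which protects cells from complement, measured −4.64 and −4.46 in pro-B(+) and −0.62 and −0.61 in pro-B(-) cells and fell by 3.93, and Frmd5, a gene of the FERM domain family, fell by 3.91. The unannotated transcript A930003A15Rik fell by 3.80.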

How the data were processed

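Total RNA had been labelled with Cy3 and hybridised to 1-colour Agilent whole mouse genome arrays. Per the file headers the authors extracted intensities with Agilent Feature Extraction 11.5.1.1, and the deposited processed signal is a background-corrected intensity with flags for spots well above background. The deposited value table holds log2 values that lie within 0.001 of the scanner intensity on a log2 scale less a constant per array in 99.2% to 99.4% of probes, and the study's methods describe scaling to the 75th percentile. Groups came from the titles, and the 4 arrays lay on 1 slide and scan.

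Spots flagged as outliers and control spots were left out, spots of a probe were averaged, and log2 intensity minus each array's 75th percentile was fitted with limma 3.58.1 in R 4.3.3 (lmFit and eBayes, 2 residual and 1.827 prior degrees of freedom), with Benjamini-Hochberg adjustment over all 23505 probes tested and a threshold of 0.05. Only these 4 arrays entered the fit. The study's methods state no test across genes. Symbols came from matching accessions to RefSeq (GRCm38.p6), which named 26581 of 39427 probes (67.4%) as 20144 genes. No gene coordinates of the array's own annotation are used. The brightest probe stood for a gene. The text names the 10 largest changes each way among genes above background on all 4 arrays, genes the study names, up to 5 called members of each list and direction, and members that define a cell type or complex, the last with values whichever way they moved. The 38 lists (780 genes, 16 without a probe) and all other choices were made with earlier results of these data known. A bound ("at least") sets the bright group's mean against the higher of the dim probe and the lowest signal well above background.

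Alternatives were median scaling, quantile normalization, the deposited value table, normexp (offset 50, on median spot signals), other filters on dim probes, all 8 arrays in 1 fit, a replicate block, an intensity trend, the mean of all probes of a gene and leaving out each array. The fit was tested on simulated data. Results for some genes are not reported here.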

Additional observations from a re-analysis of the deposited data

How the results depend on the processing

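Of the 183 genes named in the text that rose or fell, 176 kept direction and adjusted p under 0.05 in every alternative that tested them. The remaining 7 lost the call under at least 1 as given beside them, and 0 reversed. Size was not part of this check, and with median scaling rises could drop below 2-fold, as for H2-K1 (0.88), Hes5 (0.89) and Bcl2l2 (0.92). Dim genes were not tested with only probes above background on all 4 arrays, and the mean of all probes gave no p-value. Of the 61 genes named on smaller differences, 22 lost the call under at least 1 alternative, mostly without 1 array or without the filter on dim probes. They were B2m, Bcl11b, Bst2, Elane, Gata3, H2-D1, Hoxa3, Hoxa4, Hoxa7, Il2rg, Il7r, Irf9, Jun, Kdm6a, Lck, Lyl1, Prf1, Tal1, Tbp, Tcf4, Tfrc and Zap70. The 1 reversal was that of Eif2s3x, at 0.25 as the mean of its probes. With median scaling 18272 probes were called (2990 higher, 15282 lower and 1107 lower by 2-fold or more) and 10425 genes (8319 lower, 544 of them by 2-fold or more), and 50 in place of 27 list members fell. Normexp, which adds an offset and so compresses dim signals, left 917 probes and 692 genes higher and 275 probes and 155 genes lower by 2-fold or more. Without the filter on dim probes, where 39427 probes share the adjustment, 5622 probes were called (2261 lower) and 3448 genes (1174 lower). With only probes above background on all 4 arrays, fewer were tested and 1123 probes, 834 genes and 137 in place of 207 list members rose. Without 1 array the counts of probes called were 6868 (pro-B(+) replicate 1), 5814 (pro-B(+) replicate 2), 6438 (pro-B(-) replicate 1) and 6224 (pro-B(-) replicate 2), with 2544 to 3133 lower, and genes called numbered 3523 to 4093, with 1308 to 1578 lower, since the lone array of a group leaves fewer degrees of freedom. The other counts over all probes, all genes and all list members, also with quantile normalization, the deposited value table, all 8 arrays in 1 fit and an intensity trend, moved by less than 1.5 times. Of the 76 counts of rises or falls in single lists, 17 moved by more with normexp, 15 with median scaling, 16 with only probes above background on all 4 arrays, 2 with quantile normalization, 1 without the filter on dim probes, 2 to 4 without 1 array and 0 under the others. The shared replicate numbers did not pair the arrays by any label, and the differences between replicates correlated at r = 0.0944 across probes between the groups. With the replicate number as a block 8840 probes were called and 1416 genes rose and 294 fell. Signal over background limits what can be said of dim genes, for which a bound is given where no array of a group was above background, and 2 arrays per group limit the precision throughout, since an exact permutation test of 2 against 2 cannot go below p = 0.333.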

Other observations

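Some gene families outside the lists moved together. They were chosen after their values were seen, so their counts are a description only. All 6 genes of the stefin A and related cystatins that were tested, small inhibitors of cysteine proteases encoded next to each other, rose in pro-B(+) cells with a median of 6.90, and 5 of them were not well above background in pro-B(-) cells. Stfa1 measured 1.68 and 1.72 in pro-B(+) and −8.06 and −7.79 in pro-B(-) cells and was at least 183-fold higher, and Cstdc5 at least 215-fold. These genes are close in sequence, so their probes may share signal. Stfa2, the member above background on all 4 arrays, measured −0.28 and −0.29 against −3.94 and −3.45 and rose by 3.41. Of 8 Clec4 lectins tested 7 rose, with a median of 4.90, among them Clec4n, which encodes dectin-2, at least 237-fold, and Clec4a1 at least 64.3-fold higher. In the membrane family Ms4a 5 of 7 rose. Ms4a7 was at least 57.3-fold higher and Ms4a6d at least 13.8-fold, whereas Ms4a4c, which was bright in both lines, did not pass the test (−0.12).

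Among interferon-inducible families, 3 of 5 Ifitm genes tested rose. Ifitm3, which blocks virus entry, measured 2.65 and 2.70 in pro-B(+) and −2.76 and −2.78 in pro-B(-) cells and rose by 5.44, and Ifitm6 was at least 41.5-fold higher. Of 5 genes of the Ifi200 family of DNA-binding proteins 4 rose, such as Ifi204, with 1.82 and 1.74 against −2.34 and −2.36 and a rise of 4.13. Galectins did not move together, since Lgals3 alone rose among 6 tested. Single genes that were not well above background in pro-B(-) cells and rose strongly were Gpnmb, a glycoprotein of macrophages and pigment cells (at least 154-fold), and Cd83, of activated antigen-presenting cells (at least 48.4-fold). The inflammatory cytokine gene Il1b was at least 8.79-fold and Ptgs2, the inducible cyclooxygenase, at least 8.17-fold higher.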
